A study of Rattus norvegicus with 8 samples.

Results

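The genes described here encode the apolipoproteins of plasma lipoproteins and the protein that loads lipid onto them: Apoa1, Apoa2, Apoa4, Apoa5, Apob, Apoc1, Apoc2, Apoc3, Apoe and Mttp. They are 10 of the 22875 features tested on a rat expression array. Each was taken by its symbol, through the RefSeq accession that the array design prints for its probe, and each had 1 probe. The arrays measured total RNA from the livers of male rats aged 22 weeks. The high-fat samples (5 arrays) came after 14 weeks of high-fat diet, and their disease state is labelled NAFLD (non-alcoholic fatty liver disease). The control samples (3 arrays) came after 14 weeks of standard chow. The labels name no rat strain and no diet composition. Whether the samples are separate animals is not stated, so p-values measure only the spread between them, which may be technical.

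The liver packs triglyceride and cholesterol ester into very low density lipoprotein (VLDL) around a single molecule of apolipoprotein B. The microsomal triglyceride transfer protein, encoded by Mttp, adds lipid to apolipoprotein B as it enters the endoplasmic reticulum, and without that lipid the protein is degraded. The smaller apolipoproteins move between particles in plasma, where they form the coat of high density lipoprotein (HDL), switch lipoprotein lipase on or off, and direct remnants to liver receptors. In a fatty liver, export in VLDL is a main route by which triglyceride leaves the hepatocyte.

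None of these genes passed the test between diets, and the direction of most of them depended on how the arrays were scaled. Values are log2 signals relative to the 75th percentile of the array, and the diets were tested with limma, p-values being adjusted by Benjamini-Hochberg across every feature and read against 0.05. Of the 10 genes, 0 rose and 0 fell, against 3.56% of all features called (3.07% higher and 0.49% lower on high-fat diet). At an unadjusted p under 0.05, 3 of the 10 were lower (Apoa2, Apoa4 and Apob), against 20.2% of all features in either direction and 9.37% in the lower direction. All 10 log2 fold changes were negative, from −0.57 for Apoa4 to −0.01 for Mttp, with a median of −0.33 against −0.01 over all features. Of all features, 50.5% were negative.

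Brightness and slide moved with diet. The 75th percentile of the signal lay at 856 ± 134 intensity units in the 5 high-fat arrays (SD) and at 379 ± 156 in the 3 chow arrays. Probes well above background made up 84% ± 5.84 of all probes in high-fat samples and 69.2% ± 2.47 in chow samples (SD, 5 and 3 arrays). For either measure the two-sided exact permutation test gave p = 0.0179, which is the lowest value that 56 splits permit and is also the value adjusted over both measures. Slides were told apart by the scan identifier in the file headers, and arrays with the same identifier were counted as 1 slide. By that rule high-fat arrays 1 and 4 lay on slide 1, high-fat arrays 2, 3 and 5 on slide 2, and all chow arrays on slide 3. Slide and diet therefore cannot be told apart. The 8 hepatocyte markers, Alb and Ttr among them, were above background on all 8 arrays.

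Some of these genes are neighbours in the rat genome. Apoa1, Apoc3, Apoa4 and Apoa5 follow each other on chromosome 8 with 0 annotated genes between them, and Apoc2, Apoc1 and Apoe lie together on chromosome 1 with Apoc4 between Apoc2 and Apoc1. The 250 bases before the transcription start are shown for Apoa4, which had the largest difference between diets of all 10 genes, for its neighbour Apoa5, and for Apoc2 of the chromosome 1 group. They come from RefSeq on GRCr8 and run 5′ to 3′ toward the gene. Apoa4 lies at chr8:55435529-55435778 on the plus strand, Apoa5 at chr8:55457621-55457870 on the plus strand (the start farthest upstream of those listed), and Apoc2 at chr1:88462366-88462615 on the minus strand. Capitals mark matches to 5 motifs searched on both strands. The TATA box was searched as TATAAA, and a site of many nuclear receptors as AGGTCA. The E-box was searched as CACGTG and the GC box as GGGCGG, and the last motif was CCAAT.
Apoa4: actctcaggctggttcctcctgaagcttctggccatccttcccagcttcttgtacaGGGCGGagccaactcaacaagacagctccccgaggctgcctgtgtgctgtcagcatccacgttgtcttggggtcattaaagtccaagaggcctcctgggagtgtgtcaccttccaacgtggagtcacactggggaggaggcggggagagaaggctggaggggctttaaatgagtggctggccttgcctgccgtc
Apoa5: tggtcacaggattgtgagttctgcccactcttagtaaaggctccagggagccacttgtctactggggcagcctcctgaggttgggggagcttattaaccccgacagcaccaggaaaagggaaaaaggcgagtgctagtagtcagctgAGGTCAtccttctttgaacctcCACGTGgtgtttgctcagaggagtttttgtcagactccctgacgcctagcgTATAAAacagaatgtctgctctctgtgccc
Apoc2: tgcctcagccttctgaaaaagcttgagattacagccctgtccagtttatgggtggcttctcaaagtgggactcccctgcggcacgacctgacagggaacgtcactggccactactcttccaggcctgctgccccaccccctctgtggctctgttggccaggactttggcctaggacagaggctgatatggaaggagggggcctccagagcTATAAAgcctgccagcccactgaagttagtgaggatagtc

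Apoa5 held TATAAA 30 to 25 bases before its start, CACGTG 81 to 76 bases before it and AGGTCA 103 to 98 bases before it. Apoc2 held TATAAA 40 to 35 bases before its start. Apoa4 held GGGCGG 194 to 189 bases before its start and none of the other 4 motifs. Over all 33469 windows of the same length in the table, TATAAA occurred in 12.9%, AGGTCA in 14.1%, CACGTG in 5.59%, GGGCGG in 30.5% and CCAAT in 34%. Windows for Apoc1 and Apoe were searched as well: Apoc1 held GGGCGG on the opposite strand 50 to 45 bases before its start, and the Apoe start farthest upstream had 0 matches. Apoa1, Apoa2, Apoc3, Apob and Mttp were not matched in the table. The matches describe letters, and the arrays hold no measurement of what binds there.

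The apolipoproteins of HDL were all lower in mean on high-fat diet, and none passed the test. Apoa4, which in rodents is made by liver as well as intestine and travels on chylomicrons and HDL, had log2 values of 6.38, 6.31, 6.38, 6.39 and 6.25 on high-fat arrays 1 to 5, against 7.09, 6.44 and 7.22 on chow arrays 1 to 3. Apoa4 was the only gene of the 10 whose diets did not overlap, with 6.39 on the highest high-fat array and 6.44 on chow array 2; 17% of all features with a value on every array did not overlap, and 9.18% did so in the lower direction. Its log2 fold change was −0.57 ± 0.19 (SE, n = 5 high-fat and 3 chow, limma adjusted p = 0.147), which is 1.49-fold lower. Apoa2, the second protein of HDL by amount, had 5.79, 5.86, 5.73, 6.07 and 5.79 on high-fat diet, against 6.35, 5.95 and 6.44 on chow (−0.40 ± 0.16 SE, limma adjusted p = 0.216). Apoa1, the main protein of HDL and the activator of lecithin-cholesterol acyltransferase, had 5.53, 5.27, 5.18, 5.63 and 5.26 on high-fat diet, against 6.05, 5.42 and 5.72 on chow (−0.35 ± 0.19 SE, limma adjusted p = 0.333). In Apoa1 and Apoa2, chow array 2 lay among the high-fat arrays.

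Of the pair that builds VLDL, neither gene passed the test. Apob, the scaffold of VLDL, had log2 values of 6.52, 6.55, 6.63, 6.47 and 6.57 on high-fat diet, against 7.19, 6.60 and 7.22 on chow. Its 5 high-fat arrays spread little (6.55 ± 0.06, SD, n = 5), while chow averaged 7.001 ± 0.35 (SD, n = 3), with chow array 2 below the highest high-fat array. The log2 fold change of Apob was −0.45 ± 0.17 (SE, limma adjusted p = 0.192), or 1.37-fold lower. Mttp had 3.39, 2.83, 2.99, 3.61 and 2.77 on high-fat diet, against 3.07, 3.26 and 3.04 on chow. The high-fat arrays lay on both sides of the chow arrays, those of slide 1 above and those of slide 2 below. The log2 fold change of Mttp was −0.01 ± 0.22 (SE, limma adjusted p = 0.992), and its 95% interval ran from −0.51 to 0.50. That interval runs from 1.43-fold lower to 1.42-fold higher Mttp on high-fat diet.

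Apolipoproteins that act on lipoprotein lipase and on uptake did not pass the test either. Apoc3, an inhibitor of lipoprotein lipase and of remnant uptake, had 6.17, 5.80, 5.997, 6.22 and 5.88 on high-fat diet, against 6.38, 5.58 and 6.50 on chow (−0.14 ± 0.23 SE, limma adjusted p = 0.795). Apoe, the ligand through which remnants bind their receptors on hepatocytes, had 6.48, 6.33, 6.35, 6.65 and 6.12 on high-fat diet, against 6.72, 6.05 and 6.91 on chow (−0.17 ± 0.22 SE, limma adjusted p = 0.725). In both genes the high-fat arrays lay inside the range of the chow arrays. The 95% interval of the log2 fold change was −0.67 to 0.39 for Apoc3 and −0.68 to 0.33 for Apoe. Apoc2, the cofactor that lipoprotein lipase needs, had a mean of 6.86 ± 0.12 in high-fat samples and 7.17 ± 0.45 in chow samples (SD, n = 5 and 3) (−0.31 ± 0.21 SE, limma adjusted p = 0.449). Apoa5, a liver protein that promotes lipolysis by lipoprotein lipase, had a mean of 6.17 ± 0.12 in high-fat samples and 6.42 ± 0.28 in chow samples (SD, n = 5 and 3) (−0.25 ± 0.17 SE, limma adjusted p = 0.442). In Apoc2 and in Apoa5 the diets overlapped through chow array 2.

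Apoc1, a small exchangeable apolipoprotein that in other species hinders remnant uptake, gave a look at error within an array, since its probe was spotted 10 times. The spots had an SD of 0.14 to 0.19 on the high-fat arrays and of 0.11 to 0.15 on the chow arrays (1 outlying spot left out on chow array 1). The array means were 7.001, 6.61, 6.57, 7.09 and 6.63 on high-fat diet, against 7.33, 6.70 and 7.52 on chow. The log2 fold change of Apoc1 was −0.40 ± 0.23 (SE, limma adjusted p = 0.365). The other 9 genes had 1 spot on each array.

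**Figure D1:**
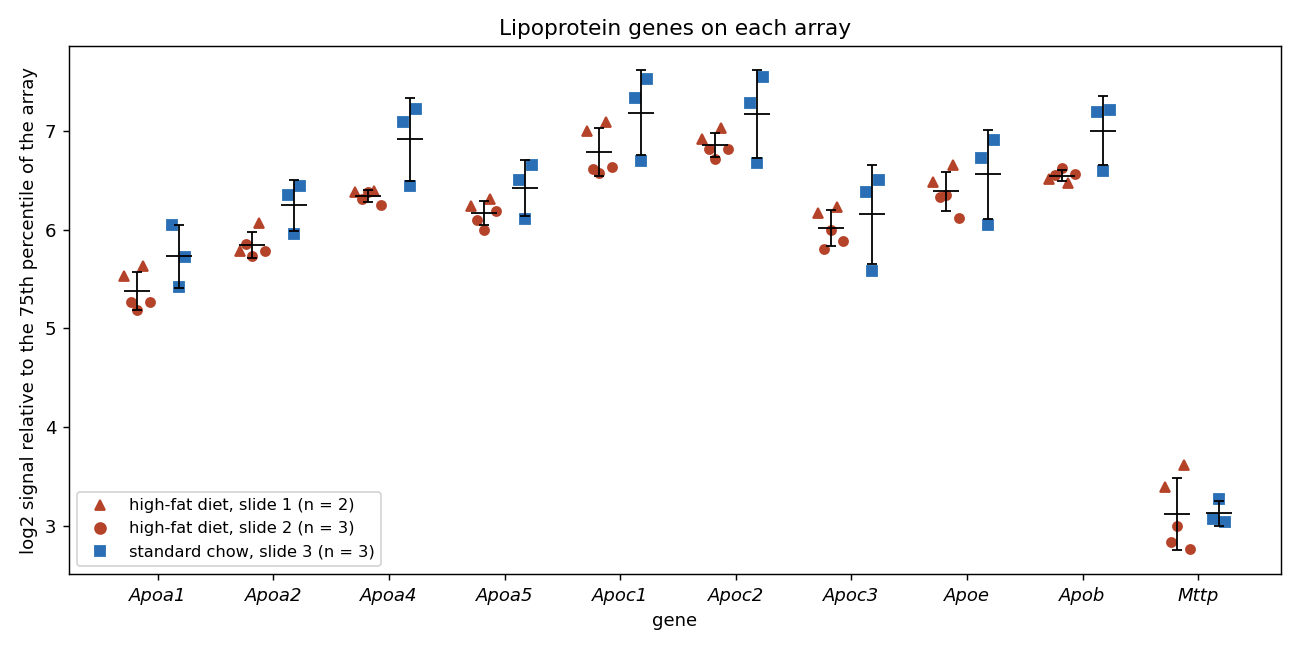
Log2 signal relative to the 75th percentile of the array (vertical axis) for the 10 genes, with high-fat arrays in red (triangles for slide 1, circles for slide 2) left of chow arrays in blue squares; black bars give mean ± SD. Apoa4 alone shows no overlap between diets, and chow array 2 is the lowest of the chow arrays in 9 of the 10 genes.

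The chow arrays set much of the spread. Chow array 2 was the lowest chow array in 9 of the 10 genes, with Mttp the exception, and chow array 3 was the highest in 8. The median deviation of the 10 genes from their means over all arrays was 0.33, −0.14 and 0.45 on chow arrays 1 to 3. The hepatocyte markers moved alike, with median deviations of 0.47, −0.14 and 0.44, and the brightest 10% of all features had 0.17, −0.02 and 0.28. The 75th percentile signal of chow array 2 was 558.9 intensity units, against 300.1 and 278.2 on chow arrays 1 and 3, and its part in these values was not tested. Without chow array 2, Apoa4 fell (log2 fold change −0.81, limma adjusted p = 0.041), 1 of 10 genes against 0.271% of all features called lower. At an unadjusted p under 0.05, 8 of the 10 genes then passed in limma, all lower, against 19.6% of all features in either direction. The share at that threshold in the lower direction, or among bright features, was not counted. The 8 genes therefore cannot be read as particular to this group. The median of the 10 genes was −0.53 without chow array 2, −0.23 without chow array 1 and −0.18 without chow array 3.

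Values also differed between the slides of the high-fat group. Slide 1 was scanned on another day than slides 2 and 3, so slide and scan day cannot be told apart within that group. On slide 1 the means were higher than on slide 2 in 9 of the 10 genes, by 0.07 (Apoa4) to 0.64 (Mttp), and Apob ran the other way by −0.09. The values of the slides, 2 arrays against 3, did not overlap in 9 of the 10 genes, Apoa2 being the exception. In Apoa4 the lowest slide 1 value was 6.3847 and the highest slide 2 value 6.3831. The share of all features without overlap between these slides was not counted, so this count cannot be read as particular to the 10 genes. With the slide 1 high-fat arrays alone against all chow arrays the median of the 10 genes was −0.15 and Mttp turned to 0.38 (limma adjusted p = 0.21). With the slide 2 high-fat arrays alone the median was −0.40 and all 10 values were negative. In each of these fits 0 of the 10 genes passed, while 8.66% of all features passed with slide 1 alone and 12.7% with slide 2 alone; at an unadjusted p under 0.05, 0 of the 10 passed with slide 1 alone against 29.4% of all features, and 4 with slide 2 alone against 33.2%.

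**Figure D2:**
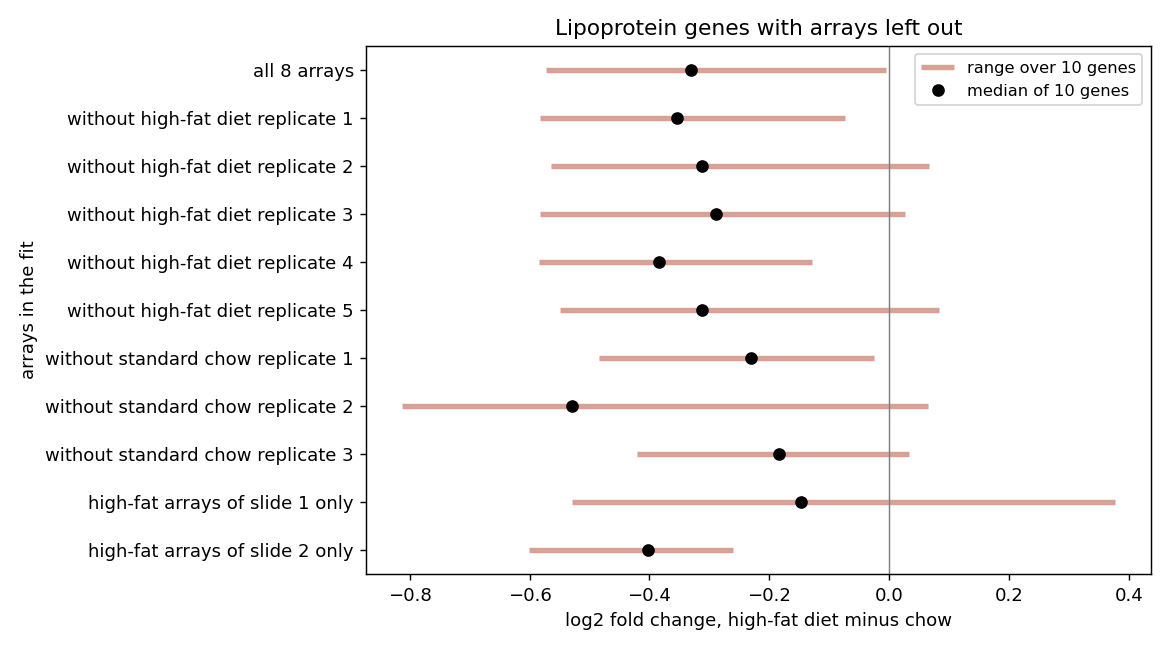
Log2 fold change, high-fat diet minus chow (horizontal axis), of the 10 genes with all 8 arrays, with each array left out and with the high-fat arrays of either slide alone; dots give the median and bars the range over the genes. The median stays below 0 in each fit shown and moves most, to −0.53, without chow array 2.

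All 10 genes lay in the brightest 10% of the features, and 8 of them in the brightest 1%. Each of the 10 probes was well above background on all 8 arrays, and 0 spots were saturated. In that bright class the median log2 fold change of all 2288 features was −0.24 and 79% were negative. Among the 229 features of the brightest 1% the median was −0.31 and 96.5% were negative, with 0 called by limma. The median of −0.33 for the 10 genes lay near that level. In the dimmest 10% the median of all features was 0.51. Before any scaling the order of the diets was the reverse. The processed signal of Apoa4 was 69500 ± 10900 intensity units in high-fat samples and 43600 ± 4150 in chow samples (SD, n = 5 and 3). That of Mttp was 7450 ± 1250 in high-fat samples and 3390 ± 1720 in chow samples. The ratio of these means ran from 1.59 for Apoa4 to 2.2 for Mttp over the 10 genes, against 2.26 for the 75th percentile signal of the arrays.

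**Figure D3:**
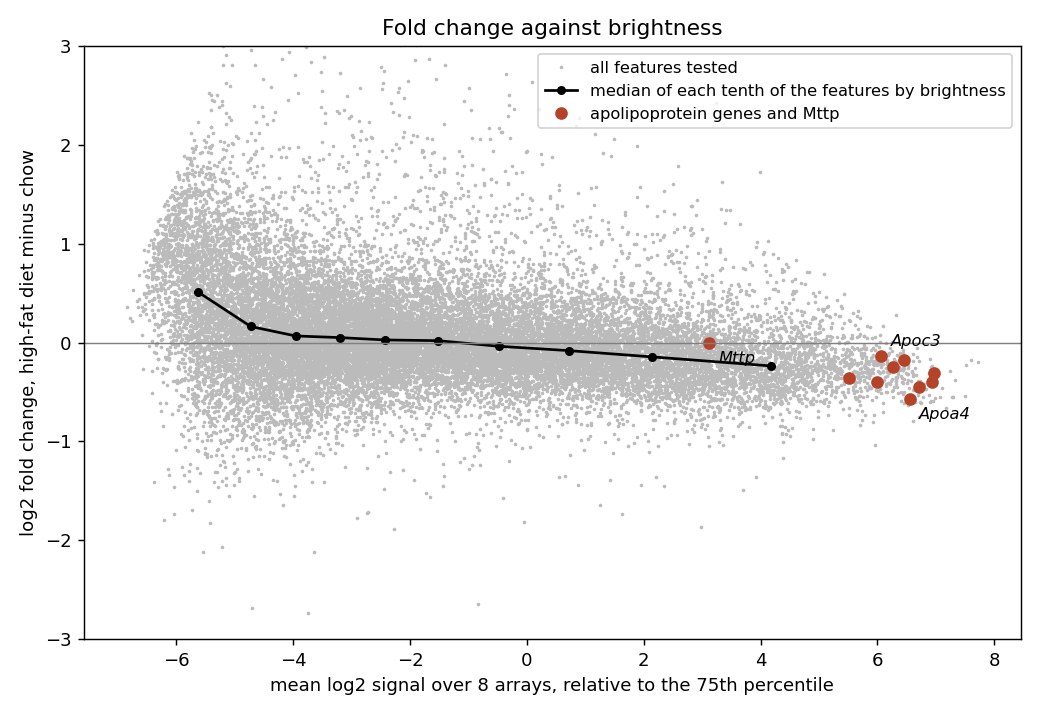
Log2 fold change, high-fat diet minus chow, against the mean log2 signal over 8 arrays for all features tested (grey), with the median of each of 10 equal classes of features by brightness (black) and the 10 genes (red); 26 features lie beyond the axis limits of −3 and 3. The apolipoprotein genes sit at the bright end, where the median of the brightest class is −0.24.

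The sign of most of the genes changed with the scaling. After quantile normalization, which gives all arrays the same distribution, the median of the 10 genes was 0.02 against −0.03 over all features, and 4 of the 10 values were negative (Apoa1, Apoa2, Apoa4 and Apob). Apoa4 was then −0.20 ± 0.11 (SE, limma adjusted p = 0.343) and Apoe 0.18 ± 0.12 (SE, limma adjusted p = 0.447). With normexp background correction the 10 genes had a median of −0.26 and all features a median of −0.29. When each array was scaled on its hepatocyte markers, a choice made after seeing the data, the median of the 10 genes was 0.07 against 0.40 over all features. In these 3 settings 0 of the 10 genes passed in limma, against 4.77% of all features after quantile normalization, 0.651% with normexp and 9.43% with hepatocyte scaling; at an unadjusted p under 0.05, 0 of the 10 passed in each, against 21.6%, 20.9% and 28.4% of all features in that order. Apoa4 and Apob kept a negative value in all 22 alternatives, and Apoa1 and Apoa2 in 21 of 22, turning to 0.05 and 0.0043 when scaled on hepatocyte markers. These counts are not counts of independent checks of the scaling. Each gene had a single probe, above background on all arrays, so changing the probe choice or the probe filter had to return the main log2 fold change. Array weights, blocks and left-out arrays kept the scaling of the main test. With array weights, which give arrays unequal influence, 3 genes fell in limma: Apoa4 (−0.68, adjusted p = 0.0272), Apob (−0.52, adjusted p = 0.0452) and Apoa2 (−0.46, adjusted p = 0.0485), against 5.29% of all features called lower in that fit.

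**Figure D4:**
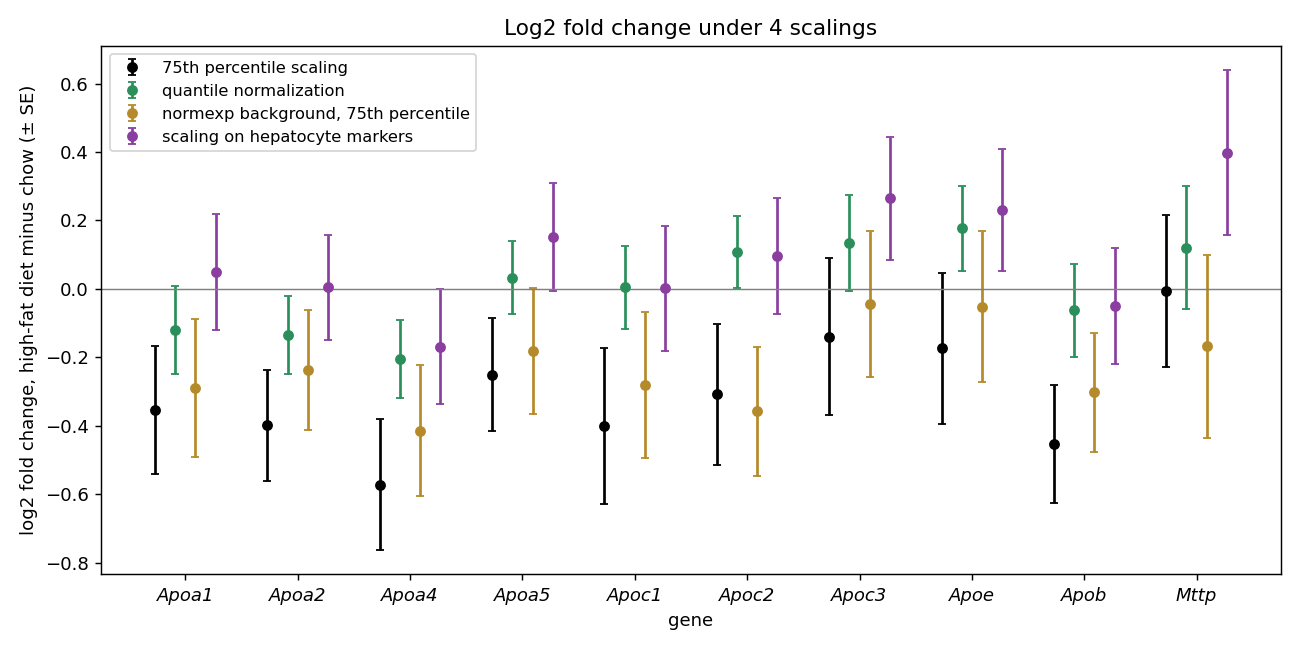
Log2 fold change, high-fat diet minus chow, with SE bars (vertical axis) for the 10 genes under 75th percentile scaling, quantile normalization, a normexp background with 75th percentile scaling, and scaling on hepatocyte markers. Apoa4 and Apob lie below 0 under each of these 4 scalings, while Mttp runs from −0.17 to 0.40.

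The estimated differences of the neighbouring genes varied in size, and whether they differ from each other was not tested. Within the chromosome 8 group the log2 fold changes were −0.35 (Apoa1), −0.14 (Apoc3), −0.57 (Apoa4) and −0.25 (Apoa5), and within the chromosome 1 group −0.31 (Apoc2), −0.40 (Apoc1) and −0.17 (Apoe). Apoa4 and Apoa5, whose promoters are printed above, had 95% intervals of −1.01 to −0.14 and −0.63 to 0.12, which overlap. Both were measured on the same arrays, so that overlap does not tell whether the genes differ. Within an array, Apoa4 minus Apoa5 averaged 0.18 (0.06 to 0.39) on high-fat diet and 0.50 (0.33 to 0.59) on chow, and the diets overlapped. Among the other 9 genes, the pattern over the 8 arrays was closest to that of Apoa4 in Apob (root mean square difference of deviations 0.10) and farthest in Mttp (0.45). Among 10704 other named genes above background on all arrays, those closest to Apoa4 were Mt1 (0.05), Cyp2c7, Mup5, Ttr and Ldha (0.06 to 0.07). Mt1 encodes a metallothionein, Cyp2c7 a cytochrome P450, Mup5 a major urinary protein, Ttr the thyroid hormone carrier transthyretin and Ldha a lactate dehydrogenase subunit. Their log2 fold changes ran from −0.60 to −0.47, and 0 of these 5 genes passed in limma (adjusted p from 0.113 to 0.211). As they were selected for the pattern of Apoa4, values near its own follow from the selection. Ttr is also 1 of the 8 hepatocyte markers.

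Other genes of the lipoprotein pathway gave no call either in the main test, though some passed in alternatives. The 59 tested genes covered assembly and secretion, other apolipoproteins, editing of Apob mRNA, remodelling and uptake, and control. Of these 59, 0 rose and 0 fell in limma, 9 had an unadjusted p under 0.05 (against 20.2% of all features), and the median was −0.20. Among 15 tested helpers of assembly and secretion, 9 were negative and the median was −0.21. Sar1b, the GTPase that drives export of lipoproteins from the endoplasmic reticulum, averaged 4.72 on high-fat diet and 5.03 on chow without overlap (−0.31 ± 0.13 SE, limma adjusted p = 0.235). Of all features, 17% did not overlap, and 9.18% did so in the lower direction. Tm6sf2, a membrane protein needed for lipid loading of VLDL, had −0.35 ± 0.23 (SE, limma adjusted p = 0.431), and Dgat2, an enzyme that makes triglyceride for VLDL, −0.03 ± 0.19 (SE, limma adjusted p = 0.959). The diets overlapped in Tm6sf2 and in Dgat2. Sort1, which encodes the sorting receptor sortilin and was singled out after its values were seen, did not overlap in the other direction, with a mean of −2.001 in high-fat samples and −2.43 in chow samples (0.43 ± 0.16 SE, limma adjusted p = 0.196). Averaged over all its probes, Sort1 had 0.09 (limma adjusted p = 0.812). Over the alternatives it ran from 0.06 with normexp to 0.83 with hepatocyte scaling, where it passed (limma adjusted p = 0.0383).

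Of 7 other apolipoprotein genes tested, all 7 were negative, with a median of −0.25. All of them but Apod lay in the brightest 10% of the features, where 79% were negative and the median was −0.24. After quantile normalization the median of these 7 genes was −0.05. Apoh, which binds phospholipids, had −0.35 ± 0.17 (SE, limma adjusted p = 0.295), and Apom, the carrier of sphingosine 1-phosphate on HDL, −0.25 ± 0.17 (SE, limma adjusted p = 0.452). Of 3 genes for editing of Apob mRNA, 2 were negative. Apobec1, the deaminase that makes the short form of apolipoprotein B, which rat liver produces alongside the long form, had −0.46 ± 0.24 (SE, limma adjusted p = 0.322). The Apob probe was not placed relative to the edited site here, so the forms cannot be told apart.

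Of 17 tested genes of remodelling and uptake, 12 were negative and the median was −0.16. Lipc, the hepatic lipase, averaged 3.53 on high-fat diet and 3.92 on chow without overlap (−0.39 ± 0.13 SE, limma adjusted p = 0.134), against 9.18% of all features without overlap in the lower direction. Singled out after their values were seen, Lcat, which encodes lecithin-cholesterol acyltransferase, had −0.57 ± 0.16 without overlap (SE, limma adjusted p = 0.107), and Scarb1, the HDL receptor gene, had 0.60 ± 0.25 with overlap (SE, limma adjusted p = 0.235). Averaged over all its probes, Scarb1 had 0.075 (limma adjusted p = 0.87). It passed with the slide 1 high-fat arrays alone (1.01, limma adjusted p = 0.0291), with normexp and quantile (0.87, adjusted p = 0.0169) and with hepatocyte scaling (1.00, adjusted p = 0.0431). With array weights Lcat (−0.61, limma adjusted p = 0.0287) and Lipc (−0.39, adjusted p = 0.0453) passed, against 5.29% of all features called lower in that fit. Of 17 tested genes of transcriptional control, 9 were negative and the median was −0.03. Creb3l3, a liver factor known to activate apolipoprotein genes including Apoa4, had −0.42 ± 0.19 (SE, limma adjusted p = 0.267), and Hnf4a, the nuclear receptor that binds many apolipoprotein promoters, −0.20 ± 0.15 (SE, limma adjusted p = 0.506).

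Markers of hepatocytes and of other sources were read beside these values. Each of the 8 hepatocyte markers was negative, with a median of −0.43, and 0 passed in limma (3 at an unadjusted p under 0.05, against 20.2% of all features). Of all features 50.5% were negative, and of the brightest 10%, where all of these markers but Hnf4a lay, 79% were negative. After quantile normalization the median of the markers was −0.10. Their mean level spanned 4.93 to 5.24 in high-fat samples and 5.13 to 5.59 in chow samples. The intestine also makes Apoa4, Apob and Mttp. Of 7 intestinal markers 4 were tested, and their mean level ran from −2.42 to −2.13 on high-fat diet and from −2.38 to −1.83 on chow. Cdx2, Sis and Muc2 were not among those tested. The lipid-binding protein gene Fabp2 was the only marker of these lists that passed: it fell by 1.04 on the log2 scale (limma adjusted p = 0.0132) and was singled out after its values were seen. The call of Fabp2 was lost without chow array 1 (−0.93, limma adjusted p = 0.0641), with normexp (adjusted p = 0.0625), with hepatocyte scaling (−0.64, adjusted p = 0.0721) and with slide as a random block (adjusted p = 0.295). The other intestinal markers tested had log2 fold changes of 0.67 (Lct), 0.24 (Vil1) and −0.19 (Alpi), and the median of these 4 genes was 0.03. The part of hepatocyte share or of tissue composition in the apolipoprotein values was not tested, and in bulk liver fewer cells of a type and less RNA per cell cannot be told apart. Lists for Kupffer cells, sinusoidal endothelium, stellate cells, cholangiocytes, pancreas, adipose tissue and blood cells had 0 genes called in limma, with 2, 0, 3, 0, 0, 0 and 0 genes, of 8, 4, 6, 4, 5, 3 and 4 tested, at an unadjusted p under 0.05 (against 20.2% of all features).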

How the data were processed

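Each of the 8 samples was hybridised to a single-colour (Cy3) Agilent array. Per the submitters' processing notes, scans were read with Agilent Feature Extraction 11.0.1.1. Per the file headers, the deposited scanner values used are Feature Extraction's background-corrected processed signal, its median signal and its local background, all intensity values, with flags of 0 or 1 for each spot. The authors' deposited value table holds log2 values with column medians of 6.423 to 6.424; how it was made is not stated in the labels, and it served as an alternative.

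Outlier spots were left out (331 to 550 for each array). Replicate spots were averaged as log2 values, and each probe was set relative to the 75th percentile of all probes on its array. Probes entered the tests when a share of 0.5 or more of their spots passed Feature Extraction's above-background flag on 3 or more arrays. Probes were named by RefSeq accession through a GRCr8 gene table (18005 of 30367 probes), and the probe with the highest mean was used for each gene. The array design names another build, so the coordinates printed are those of RefSeq's promoter windows on GRCr8, not of probes. A linear model (limma 3.58.1 in R 4.3.3, two-sided, Benjamini-Hochberg adjustment) compared high-fat diet with chow; intervals are 95% and unadjusted. Values with 1 number for each array were compared by an exact permutation test. The number of arrays limits the precision. The method was tested on simulated data with independent noise for each feature and no slide or brightness effect, so that test does not cover such effects. No 2 arrays were identical (0 pairs).

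The members, the gene lists and the rule for named genes were chosen with earlier results of these data known. All members were named whatever their p, with 9 genes of the pathway lists (1 more under the rule is not reported here) and the 5 genes closest to Apoa4; a list gene with adjusted p under 0.05 would have been added. Alternatives changed the background model, scaling, probe filter, probe choice, array weights, blocks and arrays.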

Additional observations from a re-analysis of the deposited data

How the results depend on the processing

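Slide and diet cannot be told apart, and 3 chow arrays limit the precision. In all 22 alternatives 0 of the 10 genes rose, and in 20 of them 0 fell. The exceptions were array weights, with 3 genes called (of 3172 features), and leaving out chow array 2, with Apoa4 called (log2 fold change −0.81). For the 10 genes, the alternatives of probe choice and probe filter could change the SE and p but not the log2 fold change. Leaving out 1 array at a time, the genes called ranged from 0 to 1, the probes of these genes called from 0 to 1, their median from −0.5287 to −0.1836, and all features called from 374 (without chow array 1) to 789, against 815 with all arrays; the counts were 439 and 432 without chow arrays 2 and 3 and 454 without high-fat array 2. All features called numbered 149 with normexp, 1295 with cyclic loess, 2115 with normexp and quantile, 535 with probes above background on all arrays, 81 with slide as a random block, 1979 and 2904 with the slide 1 and slide 2 high-fat arrays alone, and 2157 with scaling on hepatocyte markers, which was added after seeing the data. Of the pathway genes, 2 passed with normexp and quantile, 4 with array weights, 3 and 1 with slide 1 and slide 2 alone, and 3 with hepatocyte scaling. The median of the 10 genes was −0.0409 with cyclic loess and −0.0839 with normexp and quantile, and turned to 0.0185 with quantile, 0.0186 with the authors' table and 0.0725 with hepatocyte scaling. The cause of these shifts was not tested.

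Log2 fold changes that turned positive were, with quantile normalization, Apoa5 0.0324, Apoc1 0.0046, Apoc2 0.1076, Apoc3 0.1348, Apoe 0.1774, Mttp 0.1208 and Dgat2 0.1838. From the authors' deposited table they were Apoa5 0.0326, Apoc1 0.0046, Apoc2 0.1076, Apoc3 0.135, Apoe 0.1775, Mttp 0.1215 and Dgat2 0.1824. With cyclic loess they were Apoa5 0.0357, Apoc2 0.0068, Apoc3 0.1401, Apoe 0.1213, Mttp 0.1564 and Dgat2 0.178. With normexp and quantile they were Apoc1 0.0428, Apoc3 0.1444, Apoe 0.166, Dgat2 0.0515, Lipc 0.0032 and Creb3l3 0.101. With slide 1 alone they were Apoc3 0.044, Apoe 0.0052, Mttp 0.3769 and Dgat2 0.0309. With hepatocyte scaling they were Apoa1 0.0496, Apoa2 0.0043, Apoa5 0.1522, Apoc1 0.0018, Apoc2 0.0955, Apoc3 0.2642, Apoe 0.2304, Mttp 0.3982, Sar1b 0.0901, Tm6sf2 0.053, Dgat2 0.3772, Apoh 0.0491, Apom 0.1533, Lipc 0.0101 and Hnf4a 0.1996. Mttp was 0.0368 with slide as a random block and Dgat2 0.0198 with array weights. With 1 array left out, Mttp ranged from −0.1293 to 0.0826, Dgat2 from −0.1187 to 0.086, Apoc3 from −0.4262 to 0.0333 and Apoe from −0.4284 to 0.001.

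Same-numbered samples share only a number: their deviations correlated by 0.045, 0.035 and 0.065. With the replicate number as a block (replicate block), 4 features and 0 of the 10 genes were called, the median of the 10 genes was −0.377 and Fabp2 lost its call (−1.09, limma adjusted p = 0.143); not every sample correlated best with its own number.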

Other observations

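Differences between these genes within an array do not depend on any scaling that subtracts 1 number from the whole array. They were looked at after the values were seen and carry no test. Apoa4 minus Apoc3 was 0.21, 0.51, 0.39, 0.16 and 0.37 on the log2 scale on high-fat arrays 1 to 5, against 0.71, 0.86 and 0.72 on chow arrays 1 to 3. Apoa4 minus Apoe was −0.09, −0.02, 0.03, −0.26 and 0.13 on high-fat diet, against 0.37, 0.39 and 0.31 on chow. In both differences every high-fat array lay below every chow array, on slide 1 and on slide 2, and chow array 2 lay with the other chow arrays. Quantile normalization does not subtract 1 number, and after it Apoa4 minus Apoe still did not overlap, but Apoa4 minus Apoc3 did. Apoa4 and Apoc3 then had 15.7968 and 15.2457 on high-fat array 2, against 15.9445 and 15.4094 on chow array 1. Apoa4 minus Apob overlapped between diets, with means of −0.20 on high-fat diet and −0.08 on chow. Of the 45 pairs among the 10 genes, 6 (13.3%) did not overlap between diets, against 17% of all features taken singly: Apoa4 with Apoc2, Apoc3 and Apoe, Apoc1 with Apoc3 and Apoe, and Apoa2 with Apoa5. The pairs share genes, and no share was counted for pairs of other features, so the 17% is not a background for pairs. With a normexp background 6 pairs did not overlap, and 4 of the 6 pairs above were among them (Apoa4 and Apoc1, each with Apoc3 and Apoe). Of these 4, only Apoa4 with Apoe did not overlap after quantile normalization. Slide and diet cannot be told apart here either.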
